A study of Mus musculus with 4 samples.

Results

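Heat shock proteins and chaperones were examined in the adult mouse dentate gyrus after repeated electroconvulsive stimulation (ECS) and after chronic fluoxetine, a selective serotonin reuptake inhibitor. Genes were taken by symbol from the families Hspa, Hspb, Hspd, Hspe, Hsph, Hsp9, Dnaj, Cct, Pdia and Bag, together with Calr, Canx, Hyou1, Sdf2l1, Creld2 and Manf. Of 85 such genes with a probe set of their own, 73 reached 50 in mean signal on the 4 arrays and were measured, out of 7935 measured genes in all. The lowest member past this filter was Pdia5 with a mean signal of 72.3, and the highest below it was Dnajb8 with 37.65. The 12 members below the filter were Cct6b, Dnajb3, Dnajb7, Dnajb8, Dnajb13, Dnajc5b, Dnajc17, Hspa1l, Hspa12b, Hspb2, Hspb3 and Hspb7. Hsf1 and Hsp90ab1 were not analysed here, as no probe set of the annotation used carries either symbol alone.

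All mice were C57Bl/6, and the methods describe the animals of the study as males bought at 8 weeks of age. The ECS pool came from mice that received 11 sessions of bilateral ECS under isoflurane, at 4 sessions per week over 3 weeks, and the sham pool from mice handled in the same way without a shock. The fluoxetine pool came from mice that drank fluoxetine at 22 mg/kg/day for 4 weeks in water with 0.2% saccharin, and the vehicle pool from mice whose label gives water for 28 days. The labels of the ECS and sham arrays give 6 h, whereas the methods give 24 h between the last ECS and decapitation. By the methods, hippocampal slices were cut first and the dentate gyrus was taken from some of these, while others served for electrophysiology. Each group's RNA was pooled and measured on 1 mouse 430A 2.0 array of Affymetrix, so that no SD, interval or test can be given for any difference. By the methods, the fluoxetine samples were chosen for small frequency facilitation at the mossy fiber synapse (n = 3), while the series description applies such a choice to dematured samples without naming the treatment. The sources used here do not give the number of control mice. In pooled tissue, a change in the number of cells of a type and a change in RNA per cell cannot be told apart.

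Signals were scaled so that the 4 arrays shared the same median, and a gene was called higher or lower when its scaled signals differed at least 1.5-fold. The deposited medians were 219, 236, 365 and 335 on the ECS, sham, fluoxetine and vehicle arrays. The scaling therefore shifted the log2 ratio of sham to vehicle by about 0.50 at the median, and directions between these control pools rest on it. The same holds for any order that sets ECS or sham beside fluoxetine or vehicle, and for ratios to the mean of both control pools. Such orders and ratios are given on the common scale. The control spread of a probe set is a robust SD of log2 sham over vehicle among the 500 probe sets nearest in signal. Its median was 0.36 for signals of 50 to 100 and 0.14 for signals of at least 1000, and dim probe sets accordingly carry larger errors in their ratios.

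Chaperones bind unfolded or partly folded proteins and keep them from aggregating. In the cytosol, Hsp70 proteins bind and release clients in a cycle driven by ATP, in which J proteins deliver the client and speed up hydrolysis, and exchange factors of the Hsp110 and Bag families release the nucleotide. Unfolded protein in the cytosol activates the transcription factor HSF1, which binds heat shock elements. Unfolded protein in the endoplasmic reticulum (ER) activates the unfolded protein response, whose factors ATF6 and XBP1 act on ER stress elements in promoters of ER chaperones. Neurons are known for a weak induction of the classical Hsp70 genes and for a high level of Hspa8, the Hsp70 of unstressed cells.

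Promoter sequences were searched for these 2 elements. They are RefSeq sequences of the build GRCm38.p6, and 70 of the 85 members had one. In the 250 bases before the start of the transcript, the ER stress element (CCAAT, any 9 bases, CCACG, on either strand) was found in 7 of these 70 members (10%) and in 0.130% of 27025 genes. The 7 windows are shown 5′ to 3′ on the strand of the gene, with the fixed parts of the element in capitals. In Calr, Creld2 and the second match of Hsp90b1 the element reads on the other strand.
Hspa5 chr2:34772013-34772055, plus strand: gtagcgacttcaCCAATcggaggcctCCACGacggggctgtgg
Creld2 chr15:88819508-88819550, plus strand: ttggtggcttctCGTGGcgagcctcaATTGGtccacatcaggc
Calr chr8:84847063-84847105, minus strand: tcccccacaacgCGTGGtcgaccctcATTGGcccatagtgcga
Hsp90b1 chr10:86705521-86705668, minus strand: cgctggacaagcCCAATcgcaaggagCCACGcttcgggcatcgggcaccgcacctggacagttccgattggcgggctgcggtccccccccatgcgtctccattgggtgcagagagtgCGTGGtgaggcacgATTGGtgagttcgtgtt
Canx chr11:50325788-50325830, minus strand: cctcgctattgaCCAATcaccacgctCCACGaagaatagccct
Pdia6 chr12:17266479-17266521, plus strand: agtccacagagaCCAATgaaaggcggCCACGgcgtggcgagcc
Dnajc3 chr14:118937815-118937857, plus strand: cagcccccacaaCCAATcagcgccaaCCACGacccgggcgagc

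The core of the heat shock element (GAANNTTC or TTCNNGAA, each of which reads the same on both strands) was found in 15 of the 70 members (21.4%) and in 14.5% of all genes, a common pattern. Runs of 3 units of the element (both patterns overlapping by 1 unit) were found in Dnajb6, Hspd1 and Hspe1 and in 0.514% of all genes. Windows are shown for well-known heat shock genes among the core members, and for Hspd1 and Hspe1, which share 1 window between them on opposite strands. The windows of Hspa1a and Hspa1b are identical, and the one of Hspa1b is printed.
Hsph1 chr5:149636350-149636381, minus strand: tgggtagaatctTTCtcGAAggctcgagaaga
Dnaja1 chr4:40722332-40722363, plus strand: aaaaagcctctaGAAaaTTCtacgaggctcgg
Hspa1b chr17:34959323-34959354, minus strand: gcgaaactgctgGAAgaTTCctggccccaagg
Hspb1 chr5:135887790-135887841, plus strand: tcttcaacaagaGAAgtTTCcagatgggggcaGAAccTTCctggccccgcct
Hspe1 chr1:55088047-55088088, plus strand: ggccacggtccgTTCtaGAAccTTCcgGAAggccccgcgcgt

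**Figure D1:**
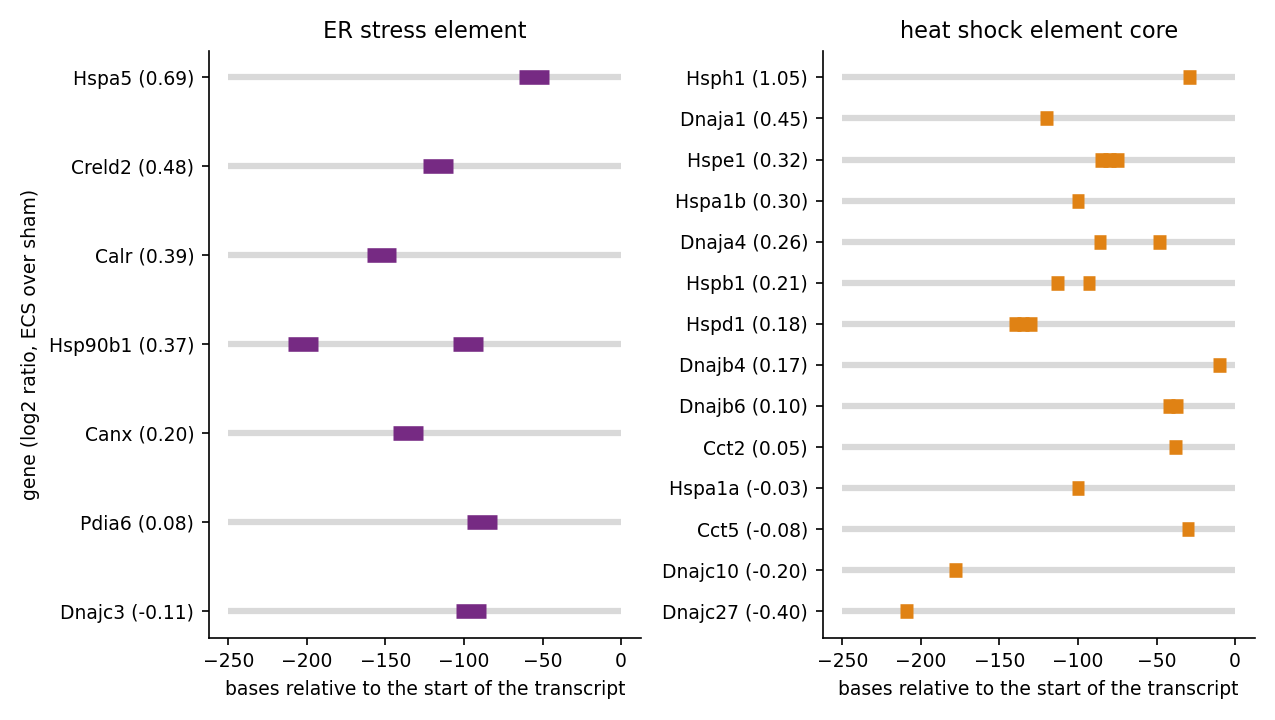
Position of the ER stress element (left, 7 genes) and of the heat shock element core (right, 14 genes) in the 250 bases before the start of the transcript, for measured members with a match. The number beside each gene is its log2 ratio of ECS to sham, from 0.69 in Hspa5 to -0.11 in Dnajc3 on the left and from 1.05 in Hsph1 to -0.40 in Dnajc27 on the right.

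Few members passed 1.5-fold, and most of the family stayed within it. With ECS, 5 members were higher (Bag3, Hsph1, Dnajb5, Sdf2l1 and Hspa5) and 2 lower (Dnajc4 and Hspa2), against 5.34% of all genes higher and 4.18% lower. With fluoxetine, 2 members were higher (Hsph1 and Bag3) and 1 lower (Hspa2), against 5.82% and 5.13% of all genes. Among 73 members, these counts are near or below the backgrounds. Hsph1 and Bag3 were higher with both treatments and Hspa2 was lower with both, which 3.04% and 1.88% of all genes were. Between the control pools, 3 members were higher in sham than in vehicle (Dnajc4, Hspb1 and Sdf2l1) and Bag3 was lower, against 1.99% and 1.21% of all genes.

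The median log2 ratio of the 73 members was 0.07 with ECS, 0.06 with fluoxetine and 0.05 for sham over vehicle, against 0.01, -0.01 and 0.01 for all genes. The log2 ratio was above 0 in 43, 47 and 41 members in these 3 comparisons, against 51.8%, 49.2% and 52.2% of all genes. As deposited, without a common scale, the medians of the members were -0.04, 0.18 and -0.46 and those of all genes -0.10, 0.12 and -0.49. The members thus lay above all genes by 0.05 with ECS, 0.07 with fluoxetine and 0.04 between the controls. These differences are the same as deposited by construction, because the scaling multiplies a whole array by a constant. After quantile normalization, which can change them, they were 0.03 with ECS, 0.05 with fluoxetine and 0.06 between the controls. Over all genes, 424 were higher and 332 lower with ECS after scaling, and 305 and 513 as deposited. With fluoxetine these counts were 462 and 407 after scaling, and 674 and 259 as deposited.

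**Figure D2:**
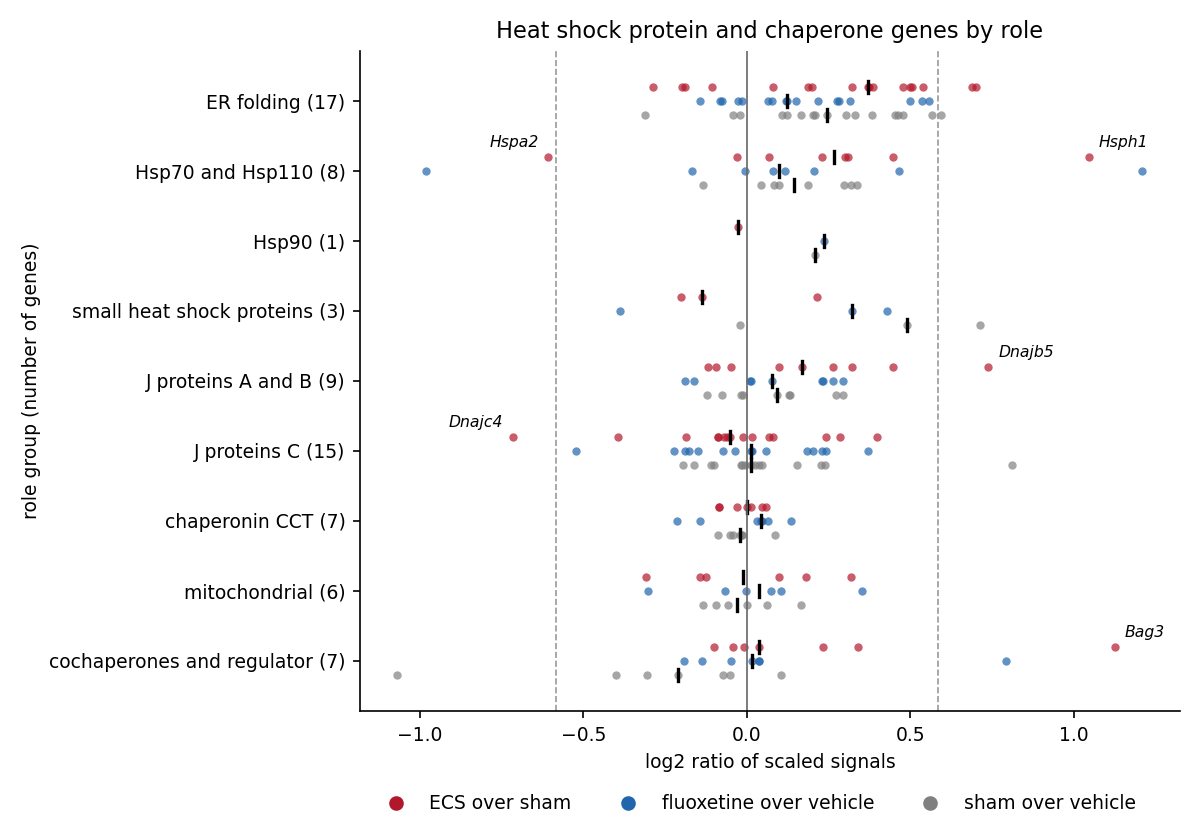
Log2 ratios of scaled signals of the 73 measured members by role group, for ECS over sham, fluoxetine over vehicle and sham over vehicle. Points are genes, black bars are medians and dashed lines mark 1.5-fold. The ER folding group had a median of 0.37 with ECS, and the 7 CCT genes lay between -0.21 and 0.13 in all 3 comparisons.

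Hsph1, which encodes the Hsp110 protein that serves Hsp70 as an exchange factor, showed the largest ratio of the bright members with both treatments. Its scaled signal was 4311 in the ECS pool against 2086 in the sham pool, and 4554 in the fluoxetine pool against 1968 in the vehicle pool. On the common scale, both treated pools thus lay at about the same high level and both control pools at about the same low level. The log2 ratios were 1.05 with ECS and 1.21 with fluoxetine, the control spread was 0.13, and sham differed from vehicle by 0.08. Among the 7935 genes, Hsph1 stood at place 126 from the top with ECS and at place 117 with fluoxetine. A second probe set of Hsph1 gave 3232 and 1359 in the ECS and sham pools and 3923 and 1249 in the fluoxetine and vehicle pools, which are log2 ratios of 1.25 and 1.65.

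The related Hsp110 gene Hspa4 had scaled signals of 1700.0 in the ECS pool, 1623 in the sham pool, 2093 in the fluoxetine pool and 1517 in the vehicle pool. Its log2 ratios were 0.07 and 0.46. The 2 dimmer probe sets gave 0.31 and 0.38 with ECS and 0.30 and 0.17 with fluoxetine, so that the comparison with the larger ratio depends on the probe set.

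Hspa2, an Hsp70 gene best known for its need in male meiosis, went the other way from Hsph1. Its scaled signal was 674 with ECS against 1026 in sham, and 569 with fluoxetine against 1125 in vehicle. Both treated pools lay below both control pools, and the control pools differed by -0.13 with a control spread of 0.14. The log2 ratios were -0.61 and -0.98, from its only probe set.

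Hspa8, the constitutive Hsp70, had scaled signals of 13089.8 in the ECS pool and 9598 in the sham pool, and of 8265 in the fluoxetine pool and 7815 in the vehicle pool. On the common scale only, the ECS pool was the highest and the fluoxetine pool lay below the sham pool. As deposited, the fluoxetine array was the highest, at 10698 against 10170 for ECS. Its log2 ratios were 0.45 with ECS, 0.08 with fluoxetine and 0.30 for sham over vehicle. The next 2 probe sets gave 0.34 and 0.26 with ECS but differed with fluoxetine, at 0.08 and 0.49. In the latter probe set the fluoxetine pool was the highest on the common scale as well, at 4187 against 3169 for ECS. Hspa1a and Hspa1b, the heat-inducible Hsp70 genes, are near-identical copies whose probes may take up each other's RNA. For Hspa1b the scaled signals were 713 and 579 in the ECS and sham pools and 413 and 464 in the fluoxetine and vehicle pools, and for Hspa1a they were 213 and 217, and 187 and 172. Neither gene reached 1.5-fold, with log2 ratios of 0.30 and -0.17 for Hspa1b and -0.03 and 0.12 for Hspa1a. Over the 8 measured genes of the Hsp70 and Hsp110 group, the median was 0.27 with ECS, 0.10 with fluoxetine and 0.14 for sham over vehicle.

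Hsp90aa1, the inducible cytosolic Hsp90, had scaled signals of 6647 and 6768 in the ECS and sham pools and of 6908 and 5860 in the fluoxetine and vehicle pools. Its log2 ratios were -0.03 and 0.24, and 2 further probe sets gave 0.46 and 0.19 with ECS and 0.26 and 0.32 with fluoxetine. The vehicle pool was the lowest for the brightest probe set but not for the second, for which sham was lower.

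Among the J proteins of classes A and B, Dnajb5, a relative of the heat shock J protein Dnajb1, was the only one past 1.5-fold. Its scaled signal was 1050.0 in the ECS pool against 629 in the sham pool, and 813 in the fluoxetine pool against 663 in the vehicle pool, with log2 ratios of 0.74 and 0.29. The second probe set gave 0.72 and 0.99, and the dimmest had 107 against 46.7 with ECS and sham, and 117 against 71.2 with fluoxetine and vehicle. All 3 probe sets thus passed 1.5-fold with ECS, and 2 of the 3 did with fluoxetine. In the dimmest, however, the control pools themselves differed by -0.61, at a control spread of 0.33. Dnaja1, a main cytosolic partner of Hsp70, had scaled signals of 3998 and 2931 in the ECS and sham pools and 2805 and 2391 in the fluoxetine and vehicle pools, with log2 ratios of 0.45 and 0.23. Dnajb1 itself had 879.7 and 705 with ECS and sham, and 667 and 661 with fluoxetine and vehicle, so that only the ECS pool stood apart. The 9 measured genes of the group had medians of 0.17 with ECS and 0.08 with fluoxetine.

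In the J proteins of class C, the median was -0.05 with ECS and 0.01 with fluoxetine over 15 genes. Dnajc27, a small GTPase that carries a J domain, was lower in both treated pools without reaching 1.5-fold. Its scaled signal was 427 against 561 for ECS and sham, and 387 against 556 for fluoxetine and vehicle. The log2 ratios were -0.40 and -0.52, with a sham over vehicle ratio of 0.01, and a second probe set gave -0.67 and -0.56. Dnajc4 had 174 in the ECS pool and 286 in the sham pool, and 188 in the fluoxetine pool and 163 in the vehicle pool. Here it was the sham pool that stood apart on the common scale, with log2 ratios of -0.72 with ECS and 0.81 for sham over vehicle. Dnajc5, the cysteine string protein of synaptic vesicles, was chosen after its values were seen, and had 2121, 2023, 2057 and 1973 in the ECS, sham, fluoxetine and vehicle pools.

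Bag3, an exchange factor for Hsp70 that directs clients to autophagy, had scaled signals of 109 in the ECS pool against 50.1 in the sham pool, and 182 in the fluoxetine pool against 105 in the vehicle pool. The log2 ratios were 1.13 and 0.79, but the control pools themselves differed by -1.07, and the ECS pool lay at the level of the vehicle pool. Its probe set is dim, with a control spread of 0.29, and it is the only one for this gene. Against the mean of both control pools, the log2 ratio of Bag3 was 0.59 with ECS and 1.33 with fluoxetine. Bag4, which binds Hsp70 and silences death domain receptors, had log2 ratios of 0.34 with ECS, 0.02 with fluoxetine and -0.40 for sham over vehicle. The other 5 genes of the cochaperone group lay between -0.10 and 0.23 with ECS.

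**Figure D3:**
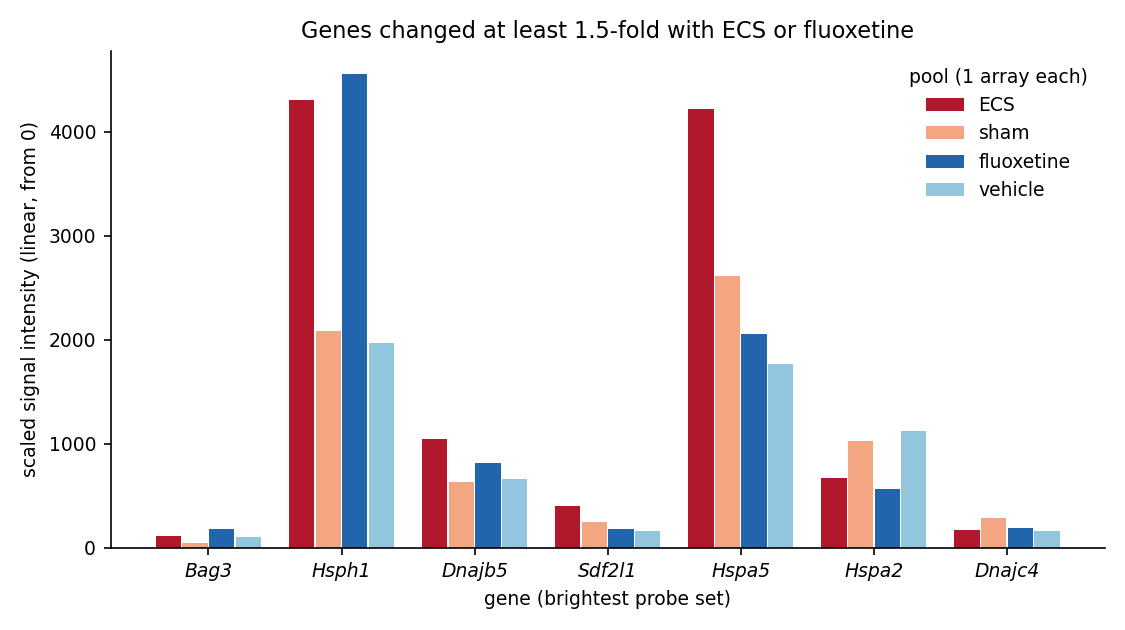
Scaled signal intensity, on a linear axis from 0, of the 7 members that differed at least 1.5-fold with ECS or with fluoxetine, in the ECS, sham, fluoxetine and vehicle pools (1 array each, no error bars). Hsph1 stood at 4311 and 4554 in the treated pools and at 2086 and 1968 in the controls, whereas Hspa5 was highest in the ECS pool and, on the common scale, next highest in the sham pool.

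The small heat shock proteins prevent aggregation without ATP. Genes were placed in this group by the symbol Hspb alone, and 3 of the 6 listed were measured. Hspb1 had scaled signals of 268 and 231 in the ECS and sham pools and 176 and 141 in the fluoxetine and vehicle pools. Its log2 ratios of 0.21 and 0.32 were smaller than the 0.71 between sham and vehicle, and its second probe set gave 0.82, 1.27 and 1.14. Hspb8, the partner of Bag3 in autophagy, had log2 ratios of -0.20 with ECS, 0.43 with fluoxetine and 0.49 for sham over vehicle, and its second probe set gave 0.14, 0.42 and 0.66. Hspb11, the third, which is here for its symbol only, had -0.14, -0.39 and -0.02.

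The ER folding genes were the group that stood furthest above all genes with ECS. All 17 were measured, and their median log2 ratio was 0.37 with ECS, 0.12 with fluoxetine and 0.25 for sham over vehicle. The last value was -0.26 as deposited, where the median of all genes was -0.49. Against the mean of both control pools, the medians were 0.47 with ECS and -0.03 with fluoxetine, and Calr, Creld2, Dnajb11, Manf and Pdia4 also passed 1.5-fold with ECS. A ratio to that mean takes in sham over vehicle, so that these values rest on the common scale. The share of all genes past 1.5-fold against that mean is not given here. The ratio was above 0 in 13 members with ECS, in 12 with fluoxetine and in 14 between sham and vehicle. The ECS pool was the highest of the 4 for 12 of the 17 genes and the vehicle pool the lowest for 10, against 29.3% and 23.5% of all genes. Both counts were the same after quantile and trimmed mean scaling, and they were 3 and 2 as deposited, where the ECS array was the highest for 0.857% of all genes. The summed scaled signal of the group was 21519 in the ECS pool and 17051 in the sham pool, and 15863 in the fluoxetine pool and 14202 in the vehicle pool. With ECS, only Sdf2l1 and Hspa5 passed 1.5-fold, and with fluoxetine none did. The 56 members outside this group had medians of 0.01 with ECS and 0.04 with fluoxetine.

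Hspa5, which encodes BiP, the Hsp70 of the ER, had scaled signals of 4223 in the ECS pool and 2618 in the sham pool, and 2057 in the fluoxetine pool and 1769 in the vehicle pool. The order ran from ECS through sham and fluoxetine to vehicle, and sham lay nearer to ECS than vehicle did. The log2 ratios were 0.69 with ECS, 0.22 with fluoxetine and 0.57 for sham over vehicle, with a control spread of 0.14. The second probe set gave 0.54, 0.30 and 0.46. The ratio with ECS was 0.58, just under 1.5-fold, as deposited and after quantile normalization.

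Sdf2l1, a partner of the ER J proteins, repeated this order with 401 and 247 in the ECS and sham pools and 178 and 164 in the fluoxetine and vehicle pools. Its log2 ratios were 0.70, 0.12 and 0.59. Manf, a secreted neurotrophic factor that binds BiP, had 1136 and 782 in the ECS and sham pools and 690.2 and 633 in the fluoxetine and vehicle pools. Hyou1, the ER member of the Hsp110 family, had 454 and 350.4, and 294 and 279. Pdia4, a disulfide isomerase of the ER, had log2 ratios of 0.51, -0.01 and 0.38. In Hspa5 and these 4 genes the fluoxetine pool lay below the sham pool on the common scale and above it as deposited.

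Creld2 and Dnajb11 differed from them in the fluoxetine pool. Creld2, an ER stress-inducible protein, had 262 and 188 in the ECS and sham pools and 195 and 138 in the fluoxetine and vehicle pools, with log2 ratios of 0.48, 0.50 and 0.45. Dnajb11, a J protein that serves BiP, had 354 and 250.2, and 319 and 217, with log2 ratios of 0.50, 0.56 and 0.21. Its treated pools thus both lay above its control pools, with control spreads of 0.23 for Creld2 and 0.18 for Dnajb11. Hsp90b1, the ER form of Hsp90, had 3217 and 2486 in the ECS and sham pools and 2626 and 2159 in the fluoxetine and vehicle pools, with log2 ratios of 0.37 and 0.28. Its second probe set gave 0.71 and 0.58.

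The lectin chaperones fold glycoproteins. Calr had scaled signals of 3234 and 2474 in the ECS and sham pools and 2172 and 1796 in the fluoxetine and vehicle pools, with log2 ratios of 0.39, 0.27 and 0.46. Canx, its membrane-bound relative, had 3295 and 2868, and 2752 and 2634, with smaller log2 ratios of 0.20, 0.06 and 0.12. The second probe set of Canx gave 0.40, 0.17 and 0.02, and the dimmest 0.24, -0.30 and -0.29. With ECS, the smaller ratio of Canx thus depends on the probe set. Not all ER genes shared the order. Dnajb9, Dnajc3 and Dnajc10, which are J proteins of the ER, had log2 ratios of -0.19, -0.11 and -0.20 with ECS and of -0.14, -0.08 and -0.08 with fluoxetine. For Dnajc3 the direction depends on the probe set, as its second gave 0.16 with ECS and 0.16 with fluoxetine. For Dnajc10 the second gave -0.09 and -0.09, but the dimmest gave 0.39 and 0.11. Dnajc1, a further J protein of the ER, had scaled signals of 197 and 173 in the ECS and sham pools and 312 and 215 in the fluoxetine and vehicle pools. Its log2 ratios were 0.19, 0.54 and -0.31, the last for sham over vehicle. Pdia5 had -0.29 with ECS at a control spread of 0.37.

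**Figure D4:**
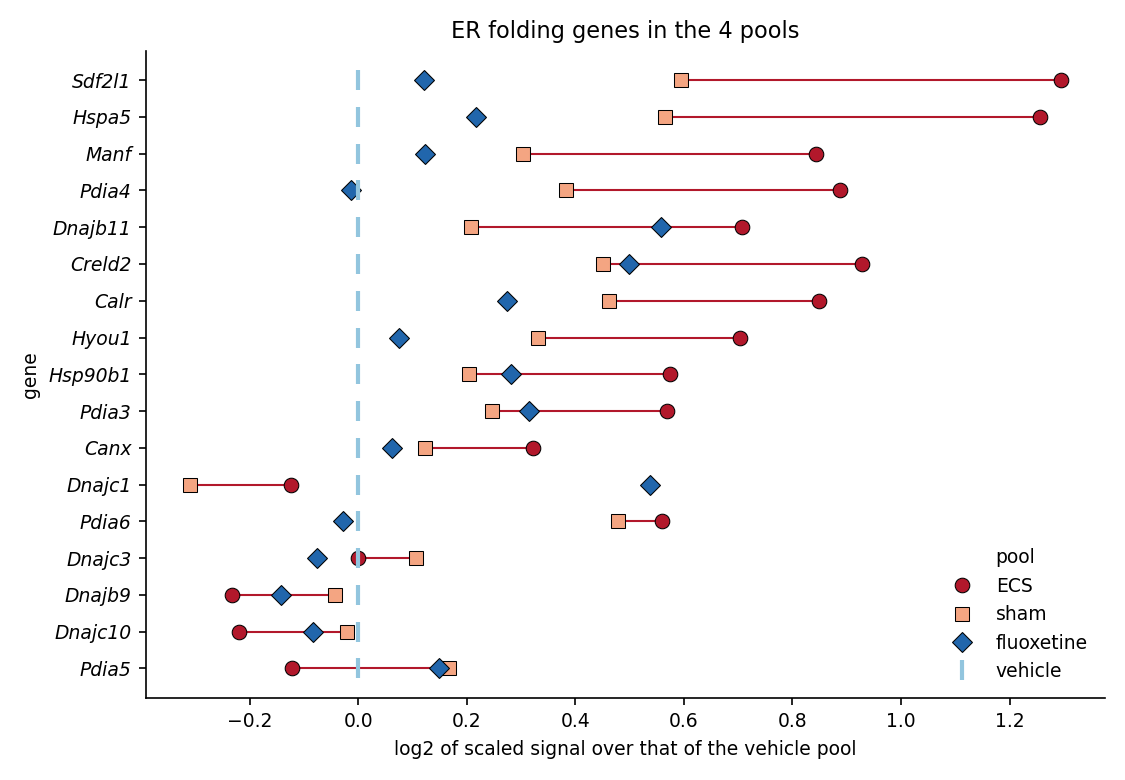
Log2 of the scaled signal over that of the vehicle pool for the 17 ER folding genes, in the ECS, sham, fluoxetine and vehicle pools. Lines join ECS and sham, and genes run from the largest ratio of ECS to sham (Sdf2l1, 0.70) at the top to the smallest (Pdia5, -0.29) at the bottom. The ECS pool is the highest for 12 genes on the common scale and for 3 as deposited, against 29.3% and 0.857% of all genes. The placement of sham to the right of vehicle depends on the common scale, since as deposited the group median of sham over vehicle is -0.26.

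The 7 measured members with an ER stress element in the promoter had a median log2 ratio of 0.37 with ECS, 0.22 with fluoxetine and 0.45 for sham over vehicle. The medians of the 53 measured members with a promoter but no such element were 0.01, 0.04 and 0.01. All 7 belong to the ER folding group, whose 17 genes had a median of 0.37 with ECS. The ER folding genes with a promoter but no element ran from 0.70 (Sdf2l1) to -0.29 (Pdia5) with ECS. In this contrast the element and the group cannot be told apart. Of the 7, 6 were above 0 with ECS and 5 with fluoxetine, and Hspa5 was the only one past 1.5-fold. Dnajc3, the 1 gene of the 7 below 0 with ECS, had -0.11 with its brightest probe set and 0.16 with its second. For the heat shock element core, the medians with ECS were 0.18 in 14 members with a match and 0.01 in 46 without, and with fluoxetine 0.06 and 0.04. The 3 members with 3 units in a row had log2 ratios of 0.10 (Dnajb6), 0.18 (Hspd1) and 0.32 (Hspe1) with ECS. A match only describes the letters of the window.

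The cytosolic chaperonin CCT, which folds actin and tubulin, stayed closest to equal signals of the role groups, with a largest absolute log2 ratio of 0.21. Its 7 measured subunits had log2 ratios between -0.09 and 0.06 with ECS, between -0.21 and 0.13 with fluoxetine and between -0.09 and 0.09 for sham over vehicle. With their brightest probe sets, all 7 stayed within 1.2-fold in the 3 comparisons, as 57.3% of the 2909 genes with a mean signal of at least 500 did. The lowest mean signal of the 7 was 969, and the control spread narrows as signal rises. Some of their other probe sets passed 1.2-fold, in both directions. With fluoxetine, other probe sets of Cct4 gave 0.36 and, at a mean signal of 106, -0.59, which is past 1.5-fold. A probe set of Cct3 with a mean signal of 95 gave -0.38 with fluoxetine. For sham over vehicle, a probe set of Cct2 gave -0.29. Among the brightest probe sets, the largest ratios were those of Cct5 and Cct7 with fluoxetine, at -0.21 and -0.14. Their control spreads were 0.14 and 0.13, and the second probe set of Cct7 gave 0.31.

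The mitochondrial group had medians of -0.01 with ECS and 0.04 with fluoxetine over 6 genes. Hspd1 and Hspe1, which form the mitochondrial chaperonin, had scaled signals of 1902 and 1812 in the ECS pool and 1677 and 1454 in the sham pool, and of 1604 and 1533 in the fluoxetine pool and 1606 and 1455 in the vehicle pool. Their log2 ratios were 0.18 and 0.32 with ECS and 0.00 and 0.08 with fluoxetine, while the second probe set of Hspe1 gave -0.06 and -0.28. Hspa9, the mitochondrial Hsp70, had log2 ratios of -0.12 and -0.07, and -0.53 and -0.09 with its second probe set. Dnajc11, which associates with the mitochondrial complexes that shape cristae, had -0.31 and -0.30, and -0.05 and -0.06 with its second probe set. Dnajc15, a cochaperone of the import motor, had 0.10 and 0.35.

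A second probe set past the filter existed for 39 members. Its log2 ratio had the same sign as that of the brightest in 30 of them with ECS, in 30 with fluoxetine and in 27 for sham over vehicle. The median absolute difference between both probe sets was 0.16, 0.13 and 0.12. Probe sets of 1 gene share the RNA and the array, so that they repeat the measurement of a transcript but not of a pool.

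**Figure D5:**
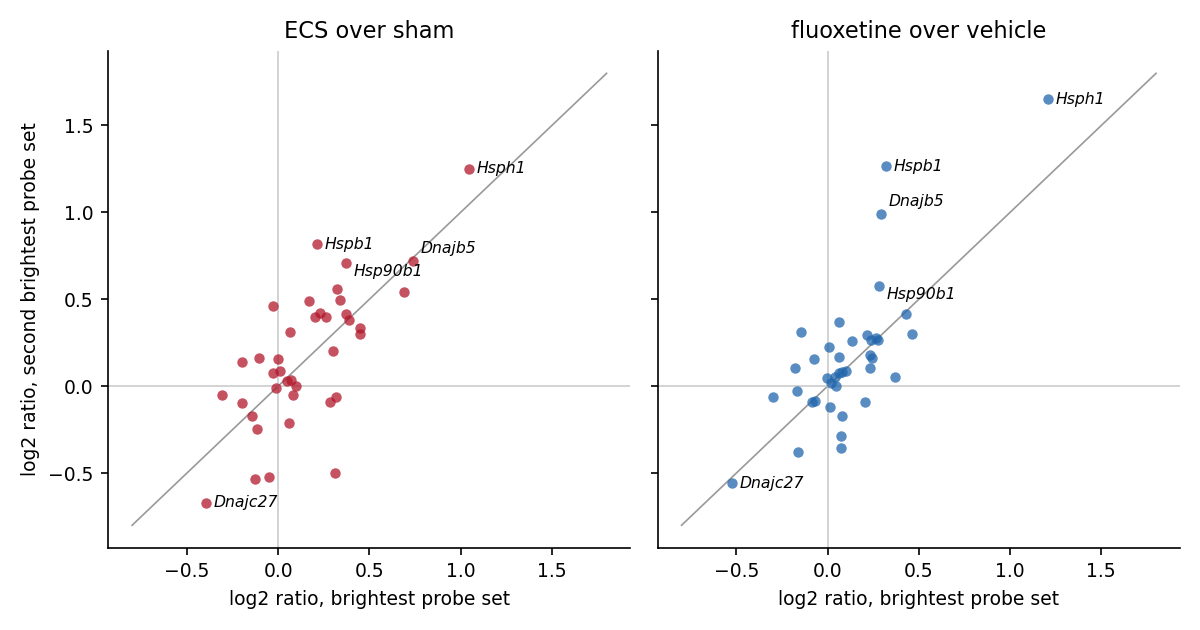
Log2 ratio of the second brightest probe set against that of the brightest for 39 members with both, for ECS over sham (left) and fluoxetine over vehicle (right), with the line of equality. Signs matched in 30 genes in each panel. Hsph1 stood at 1.05 and 1.25 with ECS and at 1.21 and 1.65 with fluoxetine, and Hspb1 lay far above the line in both panels.

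Most genes of the same pathways outside the named families stayed within 1.5-fold. Of all genes, 5.34% were higher and 4.18% lower with ECS, and 5.82% and 5.13% with fluoxetine. Of 13 measured HSF1 targets and Hsp90 cochaperones out of 18 listed, none passed 1.5-fold, and the medians were 0.03 with ECS and 0.13 with fluoxetine. Fkbp4, an Hsp90 cochaperone of steroid receptors, had 0.44 and 0.43, Serpinh1, a collagen chaperone, had 0.37 and 0.30, and Fkbp5, which dampens glucocorticoid receptor signalling, had 0.42 and 0.21. Of 17 measured regulators and targets of the unfolded protein response out of 20, Derl2 and Sel1l were higher with ECS and Derl2 also with fluoxetine, and none was lower. These are parts of ER-associated degradation, with log2 ratios of 0.76 and 0.65 with ECS and 0.69 and 0.01 with fluoxetine. Edem1, of the same pathway, had -0.44 and 0.27, with 0.54 for sham over vehicle. On the common scale its sham pool was the highest, at 200 against 148 (ECS), 166 (fluoxetine) and 138 (vehicle). The medians of this list were 0.06 and -0.07. Of 12 measured further ER folding enzymes out of 14, none passed, with medians of 0.13 and 0.06, and Txndc12, Ssr1 and Ganab had 0.53, 0.17 and 0.24 with ECS and 0.36, 0.45 and -0.27 with fluoxetine. Prefoldin, which hands actin and tubulin to CCT, had medians of 0.04 and -0.03 over 5 of 6 genes, with 0.19, -0.16 and 0.21 for Pfdn6, Vbp1 and Pfdn1 with ECS.

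Markers of cell types were read on the same arrays. Of 5 granule cell markers 4 were measured, and Prox1 was present at 127 and 134 in the ECS and sham pools and at 139 and 130.2 in the fluoxetine and vehicle pools, whereas Calb1, Tdo2 and Dsp were lower in both treated pools. The summed signal of the granule cell markers was 3181 and 7051 in the ECS and sham pools and 2069 and 7436 in the fluoxetine and vehicle pools. The 6 interneuron markers, all measured, had medians of 0.46 with ECS, 0.42 with fluoxetine and 0.26 for sham over vehicle. Of these, 2 were higher by 1.5-fold with ECS, 3 with fluoxetine and none for sham over vehicle, and Pvalb had 0.45, -0.20 and -0.25. Their summed signals were 8070.3 and 6707 in the ECS and sham pools and 7453 and 6281 in the fluoxetine and vehicle pools. Endothelial markers had medians of 0.24, -0.07 and 0.29 over 5 of 6 genes, with summed signals of 833 and 691, and 688 and 628. Among them, Kdr passed 1.5-fold with ECS (0.66) and Vwf with fluoxetine (1.31), at control spreads of 0.33 and 0.37. Of 7 astrocyte markers, Gfap was the furthest from equal signals, with 774 and 152 in the ECS and sham pools and 809.7 and 164 in the fluoxetine and vehicle pools, which are log2 ratios of 2.35 and 2.30. Aqp4, another astrocyte marker, had 0.45 and 0.74, Slc1a3 had -0.53 and -0.08, and the medians of the 7 were 0.12 and 0.20. The medians of 6 microglial markers with ECS and fluoxetine were -0.03 and 0.36, those of 5 of 6 oligodendrocyte markers 0.12 and 0.02, and those of 4 of 6 pyramidal cell markers 0.02 and -0.28. Past 1.5-fold were the microglial C1qb (0.69) and Tyrobp (0.59) with fluoxetine. The pyramidal markers Bok (0.94 and 0.73) and Pou3f1 (-1.12 and -1.55) passed it with both treatments, in opposite directions. Of 5 choroid plexus markers only Kl passed the filter, with -0.28 and -0.89. The part of these cell types in the ratios of the chaperone genes was not tested.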

How the data were processed

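RNA of pooled mouse dentate gyrus was measured on 4 arrays. The authors computed the deposited values with MAS5 (Microarray Suite 5.0), which gives 1 signal per probe set, as linear intensity without a common scale. No column was left unused. Of 22690 probe sets, 64 controls and those with a mean intensity under 50 as deposited were left out, which left 13422. Each array was multiplied so that its median over these equalled the geometric mean of the 4 medians, by 1.29 (ECS), 1.19 (sham), 0.773 (fluoxetine) and 0.842 (vehicle). Genes were named from the platform annotation, by probe sets with 1 symbol (20380 of 22626), and the brightest probe set stood for a gene. Signals under 0.1 were taken as 0.1, which no member past the filter needed. Log2 ratios were computed with Python 3.11.15, numpy 2.4.6 and pandas 2.3.3, and plots drawn with matplotlib 3.10.9. The steps were tested on simulated arrays.

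With 1 array per group no test was possible and p-values were not computed. The number of arrays limits the precision. Named genes were 22 core members where measured, every member past 1.5-fold with a treatment, the 2 of each role group with the largest summed absolute ratios and up to 3 of each further list. Pdia4, Pdia5, Dnajb9, Dnajc1, Dnajc3, Dnajc5, Dnajc10, Hspb11, Cct2, Cct3, Cct4 and Tyrobp were named after their values were seen, and Dnajb6 and Pdia6 for their promoters. Members and lists were chosen with earlier results of these data known. Alternatives concerned scaling, signal filter, low signals, choice of probe set, control array and size of a change. Promoters were RefSeq windows of 250 bases before the start. The array annotation names no genome build, so no coordinates of probe sets are given. Protein sequences and single ECS arrays were not analysed here.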

Additional observations from a re-analysis of the deposited data

Results flagged for a closer look

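The log2 ratio of Dnajc4 was -0.72 for ECS over sham and 0.20 for fluoxetine over vehicle, which differ by -0.92 and run in opposite directions. The difference was not tested, as each group has 1 array. Its signal was 174 in the ECS pool and 286 in the sham pool, and 188 in the fluoxetine pool and 163 in the vehicle pool. Against the mean of both control pools, its log2 ratios were -0.31 with ECS and -0.20 with fluoxetine.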

How the results depend on the processing

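With 1 array per group, no spread between replicates is known, and every count rests on a size rule. No paired analysis was possible because each group has 1 array. No called value changed sign under any alternative run, and scaling by a trimmed mean, a floor of 50 and a pseudocount of 16 moved no count or median beyond the limits set. Members with a signal below 200 have wider control spreads, of 0.26 to 0.36 at the median.

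As deposited, 6 members were higher with fluoxetine (8.22% of members, against 8.49% of all genes). Between the controls, 0 were higher (against 0.176% of all genes) and 14 lower in sham than in vehicle (19.2% of members, against 31.8% of all genes). The medians of sham over vehicle were then -0.46 for the members and -0.26 for the ER folding group. Without a signal filter (85 members), 8 were higher and 4 lower with ECS, 6 higher and 3 lower with fluoxetine, and 2 lower in sham than in vehicle. At a mean signal of at least 200 (59 members), 1 was higher with fluoxetine, 1 was higher with both treatments and 0 were lower in sham than in vehicle, and with at least 1 array at 50 (74 members) 2 were lower in sham. With the mean over probe sets, 4 were higher with fluoxetine, Dnajb5 (0.67) and Hspb1 (0.79) among them. Against the mean of both control arrays, 12 were higher and 1 lower with ECS, and the ER folding group had medians of 0.47 with ECS and -0.03 with fluoxetine, while Hspa5 had 0.97 and -0.06. Ratios to this mean take in sham over vehicle and rest on the common scale. Shares of all genes are not given here for the other signal filters, the mean over probe sets or the mean of both control arrays. The counts of members under these settings therefore cannot be set against the backgrounds of the main setting.

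At 1.2-fold, 23 members were higher and 5 lower with ECS, 15 and 4 with fluoxetine, 16 and 4 in sham over vehicle, and 10 and 3 with both treatments. Of all genes, 18.7% were then higher and 16.1% lower with ECS, 18.3% and 18.7% with fluoxetine, 12.4% and 9.63% in sham over vehicle, and 9.50% and 7.84% with both. At 2-fold, these counts were 2 and 0 with ECS, 1 and 0 with fluoxetine, 0 higher in sham over vehicle, and 1 and 0 with both treatments, against 1.74% and 1.05% of all genes with ECS, 2.14% and 1.15% with fluoxetine, 0.290% higher in sham over vehicle, and 1.03% and 0.491% with both. With a size of 2 control spreads, chosen after seeing the data, 17 members were higher with ECS, 11 higher and 3 lower with fluoxetine, 8 and 2 in sham over vehicle, and 7 and 2 with both treatments. Of all genes, 10.2% were then higher with ECS, 10.6% higher and 10.2% lower with fluoxetine, 3.49% and 3.31% in sham over vehicle, and 5.66% and 3.76% with both. The causes of these shifts were not tested beyond the settings themselves.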

Other observations

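Xbp1, Atf4 and Atf6, transcription factors of the unfolded protein response, were looked at after the values of the ER folding genes were seen. The log2 ratios of Xbp1 were 0.16 with ECS, 0.42 with fluoxetine and 0.47 for sham over vehicle, and those of Atf4 were 0.23, 0.30 and -0.10. Atf6 lay below 0, with -0.37, -0.28 and -0.02. Herpud1, an ER membrane protein of the same response, had 0.29, -0.14 and 0.26, and Ddit3, which encodes CHOP, had 0.17, -0.02 and -0.10. None of these 5 genes reached 1.5-fold in any of the 3 comparisons.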
